A study of Mus musculus with 12 samples.

Results

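The genes described are 36 components of the protein folding machinery of the endoplasmic reticulum (ER) and of the unfolded protein response. They are 36 of the 23996 gene rows used in each of the 2 deposited tables, matched by their symbol in the gene column. All 36 were tested by the authors in both tables. Total RNA was sequenced from 2 subsets of monocytes of C57Bl/6 mice: 3 samples of Ly6Chigh (inflammatory) monocytes from mice given muramyl dipeptide (MDP) and 3 from mice given placebo, and 3 samples of Ly6Clow (patrolling) monocytes for each of these treatments, 12 samples in all. MDP, a piece of bacterial peptidoglycan, is sensed by the receptor NOD2. The MDP titles carry 16 h and the placebo titles read Naive with no time. Dose, route, sorting gates and age are not given in the sources used here, and the NR4A1-/- and NOD2-/- mice of the design text were not analysed here.

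Each table holds 1 FPKM value per gene and condition, which scales reads by transcript length and depth and here combines the samples of a condition. No SD, SE or value per sample can be printed, the depth is unknown, and the only error behind a difference is that inside the authors' Cuffdiff q-value. The conditions are named q1 and q2, and the sources used here give neither which of them is MDP nor that q1 means one treatment throughout. Each difference below is q2 over q1 within a subset. A gene is called higher or lower in q2 where the q-value is under 0.05. The sources also do not say whether the samples of a group came from separate mice. A q-value is the adjusted result of the authors' test, and any spread between samples that entered it may be technical.

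Proteins that enter the secretory pathway are threaded into the ER through the Sec61 channel, folded by chaperones such as BiP, the product of Hspa5, and cross-linked by disulfide isomerases. Proteins that fail to fold are moved back to the cytosol and degraded, a process called ERAD. The sensors IRE1 (Ern1), PERK (Eif2ak3) and ATF6 (Atf6) respond to unfolded protein: IRE1 splices the Xbp1 message into one that encodes an active transcription factor, ATF6 is cut to release another, and PERK slows translation and favours ATF4. Monocytes and macrophages are secretory cells and carry this machinery at all times. Gene-level FPKM does not separate the spliced from the unspliced Xbp1 message.

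The subset labels were checked against markers. Of the Ly6Chigh markers, Ly6c2, which encodes Ly6C, was at 3.98 FPKM in q2 and 5.78 in q1 of the Ly6Clow table, against 1054 and 1312 FPKM in the Ly6Chigh table. The receptor gene Ccr2, needed for monocytes to leave the bone marrow, was at 72.6 FPKM in q2 and 80.2 in q1 of the Ly6Clow table, against 278 and 581 FPKM in the Ly6Chigh table. The 6 Ly6Clow markers (Nr4a1, Cx3cr1, Fcgr4, Itgal, Spn and Cd36) summed to 2634 FPKM in q2 and 3982 in q1 of the Ly6Clow table, against 821 and 1064 in the Ly6Chigh table. Over all tested genes the median log2 fold change was -0.0044 for Ly6Clow and 0.0045 for Ly6Chigh monocytes. Some members share reads or a locus with another gene, and kit strandedness is not given, so their values are less certain: 6 share their deposited locus (Pdia4, Pdia6, Dnajb11, Syvn1, Derl2 and Ppib), 4 have near-identical transcripts elsewhere (Derl1, Sec61b, Sec61g and Spcs2), and 10 overlap an annotated gene on the opposite strand (among them Hsp90b1, Manf, Eif2ak3, Herpud1 and Sec61a1), 15 members in all.

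Many genes of this machinery carry the ER stress response element (ERSE), a promoter sequence in which NF-Y binds CCAAT and ATF6 binds CCACG. A promoter entry of RefSeq (build GRCm38.p6, 250 bases before to 50 after the annotated start) was matched to 30 of the 36 members. Hyou1, Manf, Atf6, Derl1, Sec61a1 and Ssr2 had no entry. The motif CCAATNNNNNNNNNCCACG was present on either strand in the promoters of 9 of these 30 members (30.0%) and in 39 of all 32851 promoters (0.119%). The 10 sites of the 9 members are shown because 6 of the 11 chaperone genes below hold them. Each is written 5′ to 3′ in the direction of the motif, with the fixed letters in capitals and the spacer in lower case.
Hspa5 (chr2:34772025-34772043, plus strand): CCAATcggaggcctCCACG
Calr (chr8:84847075-84847093, plus strand): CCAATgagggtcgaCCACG
Derl3 (chr10:75893242-75893260, minus strand): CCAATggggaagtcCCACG
Hsp90b1 (chr10:86705638-86705656, minus strand): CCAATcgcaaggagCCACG
Hsp90b1 (chr10:86705533-86705551, plus strand): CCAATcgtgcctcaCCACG
Canx (chr11:50325800-50325818, minus strand): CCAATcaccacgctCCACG
Pdia6 (chr12:17266491-17266509, plus strand): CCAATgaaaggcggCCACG
Dnajc3 (chr14:118937827-118937845, plus strand): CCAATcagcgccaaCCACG
Creld2 (chr15:88819520-88819538, minus strand): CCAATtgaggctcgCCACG
Syvn1 (chr19:6046532-6046550, plus strand): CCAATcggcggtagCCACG
The sites lay 44 (Syvn1) to 212 (Hsp90b1) bases before the annotated start, counted to their first base, and that of Hspa5 lay 65 bases before it. The variant ERSE-II, which is ATTGG, any base and CCACG, was found in 2 other members, against 12 of all promoters (0.0365%), 52 bases before the start in Herpud1 and 7 bases after it in Dnajb11.
Herpud1 (chr8:94386377-94386387, plus strand): ATTGGgCCACG
Dnajb11 (chr16:22857852-22857862, plus strand): ATTGGcCCACG
The core of the XBP1 site UPRE, TGACGTGG, was in 0 of 30 members and 0.676% of all promoters, and the ATF4 element CARE, TGATGNAAT, in 0 of 30 and 0.965%. Both strands were searched for each motif, and no member held sites of more than 1 motif.

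In Ly6Chigh monocytes the folding enzymes and chaperones were the members most often called higher in q2, with Sdf2l1, Pdia4, Calr, Pdia6, Pdia3 and Creld2 each called and over 2-fold. Of the 36 members, 16 were called higher and 2 lower in q2, beside 7.07% of the 11626 tested genes called higher and 7.54% called lower, so the share called lower was near its background. In either direction 18 members were called, beside 14.6% of tested genes. Since 35 of the 36 had a mean of at least 10 FPKM, the same shares among tested genes at that level are also given, 7.98% and 8.81%. The median log2 fold change of the members was 0.51, and 30 of 36 were above 0. The members summed to 5488 FPKM in q2 and 3233 FPKM in q1, which is 0.879% and 0.505% of the FPKM of all genes. Without the lysozyme gene Lyz2 the shares were 0.903% in q2 and 0.53% in q1. In RNA from bulk cells, a change in the make-up of the cells and a change in RNA per cell cannot be told apart.

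**Figure D1:**
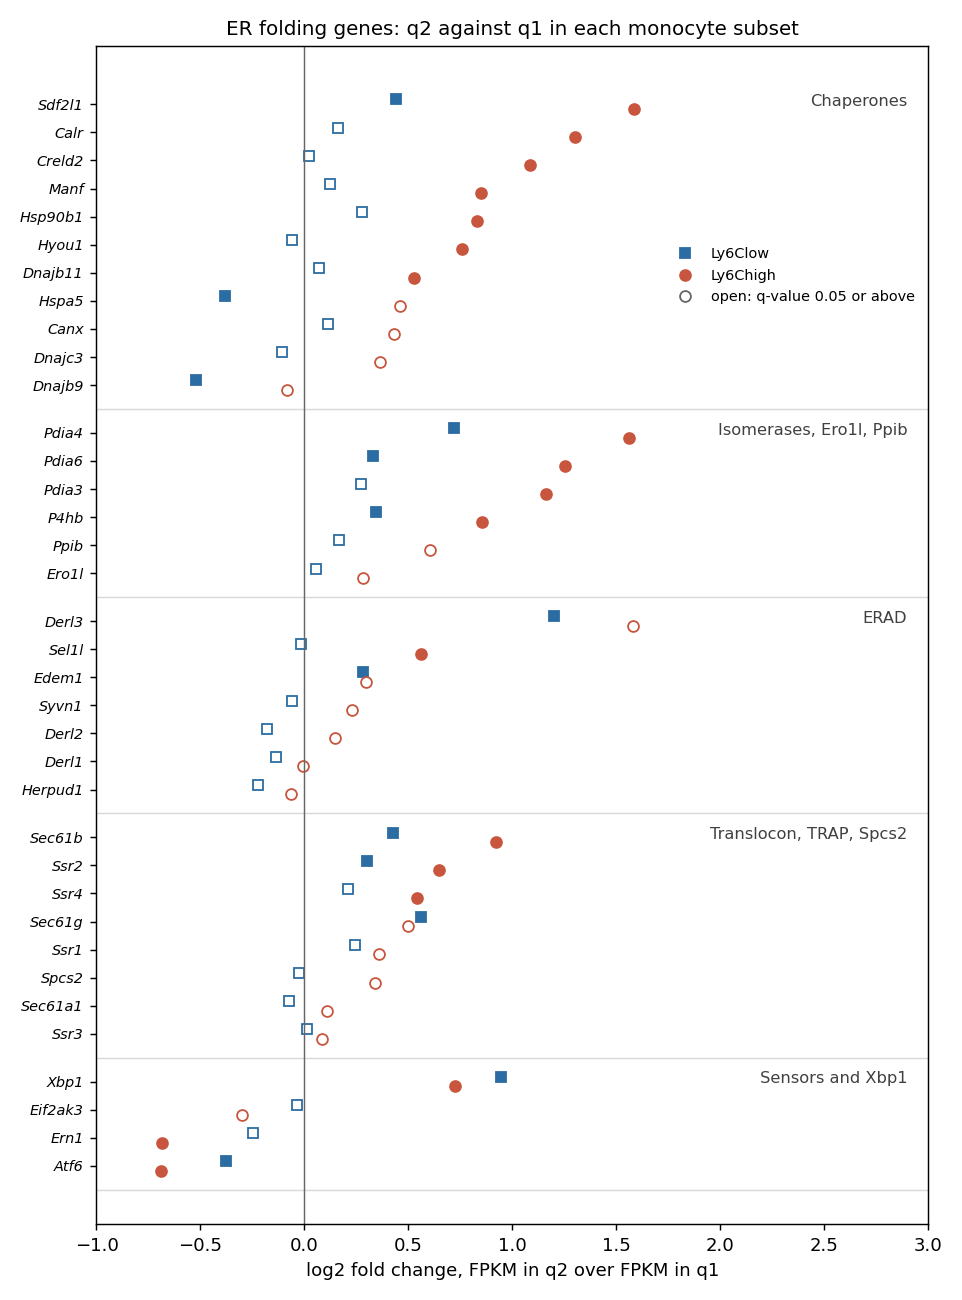
Log2 fold change (FPKM in q2 over FPKM in q1) of each of the 36 members, by role. Squares are Ly6Clow and circles Ly6Chigh monocytes, filled where the authors' q-value is under 0.05; Sdf2l1 and Pdia4 have the largest called differences in Ly6Chigh, at 1.59 and 1.56, while Atf6 and Ern1 are at -0.69.

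Of the 11 chaperones and cochaperones, 7 were called higher and 0 lower in q2 in Ly6Chigh monocytes, beside 7.07% and 7.54% of all tested genes. At an unadjusted Cuffdiff p under 0.05, 9 were higher and 0 lower. The share of all tested genes at that unadjusted p was not computed, so counts by it, here and below, are a description only. Sdf2l1, a cochaperone that works with BiP and its J-domain partners (chromosome 16, 17130138 to 17132383, mm10, protein-coding, minus strand), was at 149 FPKM in q2 and 49.5 in q1, 3.001-fold higher in q2 (q = 0.000859 per the authors' deposited table). Calr, which encodes the calcium-binding lectin chaperone calreticulin (chromosome 8, 84842088 to 84846931, minus strand), was at 811 FPKM in q2 and 328 in q1, 2.47-fold higher (q = 0.000859 per the authors' deposited table). Calr was the most abundant member in q2 of both tables, and its level in q1 of the Ly6Chigh table was also the highest there. Creld2, an ER stress-inducible protein, was at 42.3 and 19.97 FPKM in q2 and q1, 2.12-fold higher (q = 0.000859 per the authors' deposited table).

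Manf, a small secreted protein that binds BiP, was at 58.4 FPKM in q2 and 32.5 in q1 of the Ly6Chigh table, 1.80-fold higher (q = 0.000859 per the authors' deposited table). Hsp90b1, which encodes GRP94, the ER member of the HSP90 family and a chaperone of Toll-like receptors and integrins, was at 353 and 199 FPKM in q2 and q1, 1.77-fold higher (q = 0.00159 per the authors' deposited table). The nucleotide exchange factor gene Hyou1 was at 58.8 and 34.8 FPKM, 1.69-fold higher, and the J-domain cochaperone gene Dnajb11 at 113 and 78.6 FPKM, 1.44-fold higher (q = 0.00159 and q = 0.0412 per the authors' deposited table). Hspa5 itself (chromosome 2, 34772090 to 34776529, plus strand) did not pass, at 323 FPKM in q2 and 235 in q1 (1.38-fold, q = 0.107 per the authors' deposited table). The lectin chaperone gene Canx was at 97.2 and 72.1 FPKM (q = 0.117), Dnajc3 at 32.8 and 25.5 (q = 0.207) and Dnajb9 at 14.2 and 15.1 (q = 0.886) in q2 and q1, per the authors' deposited table. Dnajc3 and Dnajb9 encode J-domain cochaperones of BiP, and the folds of the role ran from Sdf2l1 at the top to Dnajb9 at the bottom.

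Among the 5 disulfide-forming enzymes and the prolyl isomerase Ppib, 4 of 6 were called higher and 0 lower in q2 in Ly6Chigh monocytes, with 5 higher and 0 lower at an unadjusted Cuffdiff p under 0.05. Of all tested genes, 7.07% were called higher and 7.54% lower. Pdia4, also called ERp72 (chromosome 6, 47796141 to 47813512, minus strand), was at 99.8 FPKM in q2 and 33.8 in q1, 2.95-fold higher (q = 0.000859 per the authors' deposited table). Pdia6, an isomerase that limits IRE1 signalling, was at 267 and 112 FPKM, 2.38-fold higher, and Pdia3, the calreticulin and calnexin partner that also serves in MHC class I loading, at 425 and 190 FPKM, 2.24-fold higher (each q = 0.000859 per the authors' deposited table). P4hb, the founding protein disulfide isomerase, was at 431 FPKM in q2 and 238 in q1, 1.81-fold higher (q = 0.000859 per the authors' deposited table). The role had the highest median log2 fold change of the 5 roles, 1.01. Ppib, cyclophilin B, was at 310 and 204 FPKM (q = 0.0951) and the oxidase gene Ero1l at 12.6 and 10.3 FPKM (q = 0.411) in q2 and q1, per the authors' deposited table.

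Of the 8 translocation genes in Ly6Chigh monocytes, 3 were called higher and 0 lower in q2 (4 and 0 at an unadjusted Cuffdiff p under 0.05), and their median log2 fold change was 0.43. The shares of all tested genes called higher and lower were 7.07% and 7.54%. Sec61b, the small beta subunit of the Sec61 channel, was at 461 FPKM in q2 and 244 in q1, 1.89-fold higher (q = 0.000859 per the authors' deposited table). The pore subunit gene Sec61a1 was at 85.6 and 79.4 FPKM (q = 0.802) and the gamma subunit gene Sec61g at 205 and 145 FPKM (q = 0.0616) per the authors' deposited table. Of the TRAP complex, which assists Sec61, Ssr2 was at 134 and 85.9 FPKM, 1.56-fold higher (q = 0.00609), and Ssr4 at 189 and 130 FPKM, 1.46-fold higher (q = 0.0424), per the authors' deposited table. The other TRAP genes did not pass, with Ssr1 at 26.8 and 20.9 FPKM (q = 0.227) and Ssr3 at 102 and 96.8 FPKM (q = 0.861) per the authors' deposited table. Spcs2, a subunit of the signal peptidase, was at 53.8 and 42.5 FPKM (q = 0.261 per the authors' deposited table).

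Of the 7 ERAD genes in Ly6Chigh monocytes, 1 was called higher and 0 lower (1 and 0 at an unadjusted Cuffdiff p under 0.05), with a median log2 fold change of 0.23. These counts are near the 7.07% and 7.54% of all tested genes. The called gene was Sel1l, the adaptor of the ERAD ubiquitin ligase, at 29.8 FPKM in q2 and 20.2 in q1 (1.48-fold, q = 0.0251 per the authors' deposited table). The ligase gene Syvn1, which encodes HRD1, was at 25.6 and 21.9 FPKM (q = 0.573) and the ERSE-II gene Herpud1, a scaffold of the same complex, at 54.7 and 57.2 FPKM (q = 0.902) per the authors' deposited table. The mannosidase-like gene Edem1 was at 75.8 and 61.7 FPKM (q = 0.352), Derl1 at 66.3 and 66.7 (q = 0.988) and Derl2 at 13.7 and 12.3 (q = 0.777) in q2 and q1, per the authors' deposited table. Derl3 was near the floor of the table, at 0.411 and 0.137 FPKM (q = 0.353 per the authors' deposited table).

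In the sensor group of 4 genes, the Ly6Chigh table had 1 gene called higher in q2, Xbp1, and 2 called lower. All tested genes were called higher and lower at 7.07% and 7.54%, and with 4 genes these counts are a description only. Xbp1 (chromosome 11, 5520641 to 5525993, plus strand) was at 310 FPKM in q2 and 188 in q1, 1.65-fold higher (q = 0.00348 per the authors' deposited table). Atf6 (chromosome 1, 170704457 to 170867771, minus strand) was at 20.1 and 32.3 FPKM, 1.61-fold lower (q = 0.00457), and Ern1 (chromosome 11, 106397620 to 106487796, minus strand) at 19.2 and 31.0 FPKM, 1.61-fold lower in q2 (q = 0.00756), per the authors' deposited table. Eif2ak3 was at 16.5 and 20.3 FPKM (q = 0.346 per the authors' deposited table). In this table the 3 sensors lay between 16.5 and 32.3 FPKM, while Xbp1 was at 188 FPKM or more.

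**Figure D2:**
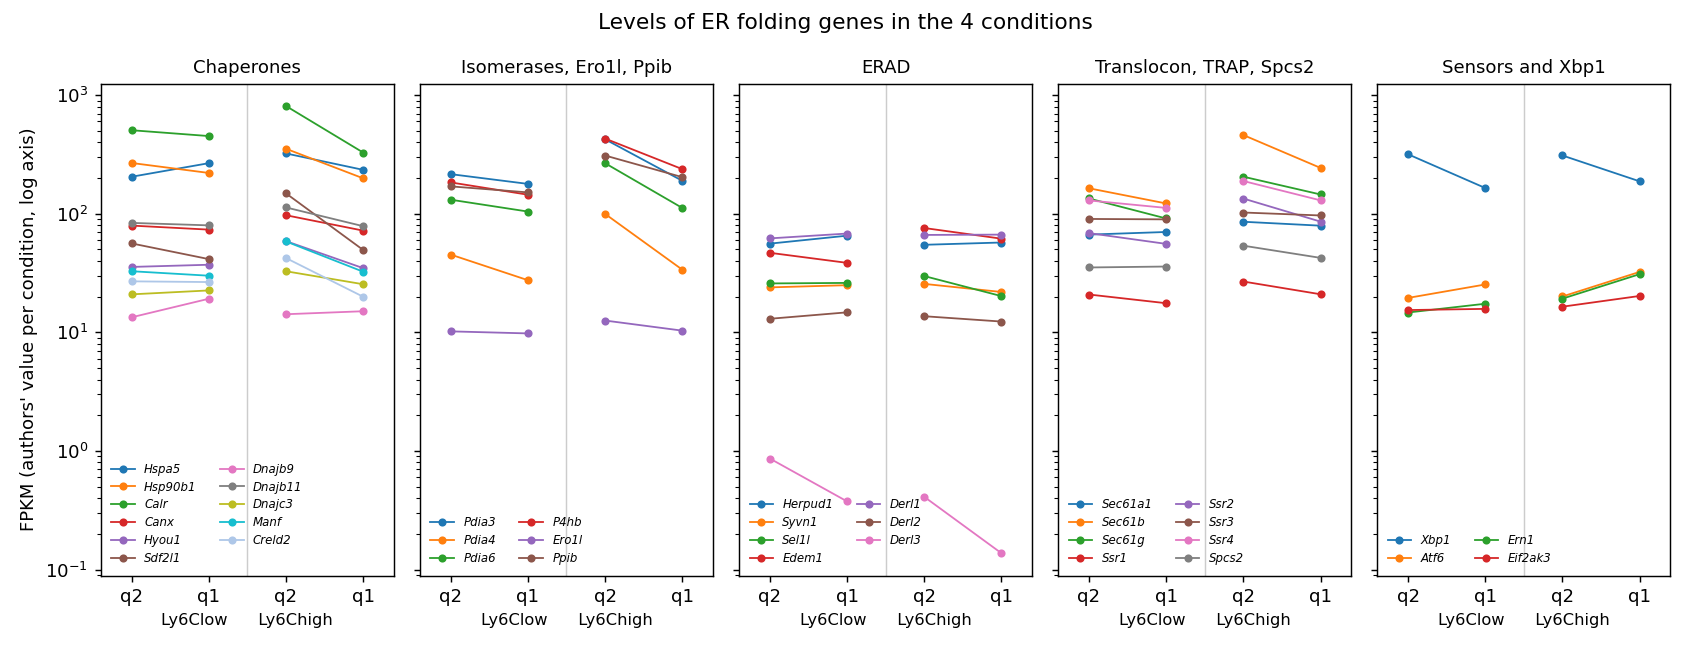
FPKM (authors' value per condition, log axis) of every member in q2 and q1 of the Ly6Clow and Ly6Chigh tables, with a panel per role and a line between the conditions of a table. Calr is at 506 and 452 FPKM in q2 and q1 of the Ly6Clow table, against 811 and 328 FPKM in the Ly6Chigh table, Xbp1 stands above the sensors in every condition, and Derl3 lies under 1 FPKM.

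In Ly6Clow monocytes Xbp1, Pdia4 and the low-level Derl3 had the largest called differences, and Hspa5 was among the members called lower in q2. Of the 36, 10 were called higher and 3 lower in q2, beside 14.2% of the 12042 tested genes called higher and 12.2% called lower, or 15.7% and 14.4% among tested genes with a mean of at least 10 FPKM. The share called lower was again near its background. The median log2 fold change of the members was 0.09, with 22 of 36 above 0, and they summed to 3391 FPKM in q2 and 2943 in q1, 0.591% and 0.519% of all FPKM. In either direction 13 members were called, beside 26.3% of tested genes. Of the 36 members, 3 were called with a difference of at least 1.5-fold, all higher (Pdia4, Xbp1 and Derl3). By that rule 7.14% of tested genes were higher and 5.67% lower, so the share of members higher was near its background. The smallest called difference was the 1.22-fold of Edem1. In the Ly6Chigh table the smallest called difference of a member was the 1.44-fold of Dnajb11.

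Xbp1 had the second highest q2 level of the members in Ly6Clow monocytes, at 317 FPKM in q2 and 165 in q1, 1.93-fold higher (q = 0.000418 per the authors' deposited table). Xbp1 also marks plasma cells, whose 7 other markers summed to 42.8 FPKM in q2 and 31.0 in q1 here, with 3 of 6 tested called higher and 1 lower, and their part in this value was not tested. Pdia4 was at 45.3 FPKM in q2 and 27.5 in q1, 1.64-fold higher (q = 0.000418), Pdia6 at 131 and 104 FPKM, 1.26-fold higher (q = 0.0123), and P4hb at 184 and 145 FPKM, 1.27-fold higher (q = 0.0103), per the authors' deposited table. Pdia3 was at 216 and 179 FPKM (q = 0.064 per the authors' deposited table), so 3 of the 6 genes of the isomerase role were called higher and 0 lower, with 4 and 0 at an unadjusted Cuffdiff p under 0.05. Of all tested genes, 14.2% were called higher and 12.2% lower. Ppib was at 170 and 151 FPKM (q = 0.464) and Ero1l at 10.2 and 9.80 FPKM (q = 0.779) in q2 and q1, per the authors' deposited table.

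Of the 11 chaperones in Ly6Clow monocytes, 1 was called higher and 2 lower, counts near the 14.2% and 12.2% of all tested genes. Hspa5 was at 205 FPKM in q2 and 267 in q1, 1.30-fold lower in q2 (q = 0.00821 per the authors' deposited table). Dnajb9, which encodes ERdj4, a BiP cochaperone that represses IRE1, was at 13.4 and 19.2 FPKM, 1.43-fold lower (q = 0.000788), and Sdf2l1 at 56.2 and 41.5 FPKM, 1.36-fold higher (q = 0.000788), per the authors' deposited table. Calr was at 506 and 452 FPKM (q = 0.355) and Hsp90b1 at 268 and 221 FPKM (q = 0.0658) per the authors' deposited table. The remaining 6 chaperones had q-values of 0.456 (Manf) to 0.935 (Creld2) per the authors' deposited table, with Canx at 79.5 and 73.5 FPKM in q2 and q1, Hyou1 at 35.6 and 37.2, Manf at 32.8 and 30.0, Creld2 at 26.9 and 26.6, Dnajb11 at 83.8 and 79.9 and Dnajc3 at 20.9 and 22.6.

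Among translocation genes in Ly6Clow monocytes, 3 of 8 were called higher and 0 lower in q2, with 4 and 0 at an unadjusted Cuffdiff p under 0.05. The shares of all tested genes called higher and lower were 14.2% and 12.2%. Sec61g was at 135 FPKM in q2 and 91.3 in q1, 1.47-fold higher (q = 0.000418), Sec61b at 164 and 122 FPKM, 1.34-fold higher (q = 0.00181), and Ssr2 at 68.7 and 55.7 FPKM, 1.23-fold higher (q = 0.0294), per the authors' deposited table. Sec61a1 was at 66.7 and 70.2 FPKM (q = 0.686 per the authors' deposited table), so the genes of the channel's small subunits were called in this table and that of its pore subunit was not. The difference between them was not tested, and Sec61b and Sec61g have near-identical transcripts elsewhere, so their values are less certain. Ssr4 was at 130 and 112 FPKM (q = 0.168), Ssr1 at 20.9 and 17.6 (q = 0.0825), Ssr3 at 90.4 and 89.7 (q = 0.953) and Spcs2 at 35.3 and 35.9 (q = 0.898) per the authors' deposited table. The 7 ERAD genes held 2 calls higher and 0 lower in q2 (2 and 1 at an unadjusted Cuffdiff p under 0.05), beside the same shares of all tested genes. Edem1 was at 46.9 and 38.6 FPKM, 1.22-fold higher (q = 0.0426), and Derl3 at 0.863 and 0.376 FPKM, 2.30-fold higher at a very low level (q = 0.0262), per the authors' deposited table. Herpud1 was at 56.0 and 65.4 FPKM (q = 0.119), Sel1l at 25.9 and 26.1 (q = 0.944) and Syvn1 at 23.95 and 24.99 (q = 0.777) in q2 and q1, per the authors' deposited table. Derl1 was at 62.0 and 68.1 FPKM (q = 0.394) and Derl2 at 13.01 and 14.7 (q = 0.359) per the authors' deposited table. Derl1, Derl2 and Derl3 encode derlins, membrane proteins of the channel for export from the ER. Of the sensors, Atf6 was at 19.5 and 25.3 FPKM, 1.30-fold lower in q2 (q = 0.00271), Ern1 at 14.7 and 17.4 (q = 0.0952) and Eif2ak3 at 15.4 and 15.8 (q = 0.873) per the authors' deposited table.

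At a q-value under 0.01, 5 members were higher and 3 lower in q2 of the Ly6Clow table, beside 10.1% and 8.15% of tested genes, and 13 higher and 2 lower in q2 of the Ly6Chigh table, beside 4.17% and 4.91%. In Ly6Chigh monocytes, 13 members were higher and 2 lower by the 1.5-fold rule, beside 6.44% and 6.91%. With q-values adjusted again over tested genes of at least 1 FPKM in either condition, 9 members were higher and 3 lower in the Ly6Clow table, beside 14.9% and 12.9%, and 16 and 2 in the Ly6Chigh table, beside 7.57% and 8.04%.

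**Figure D3:**
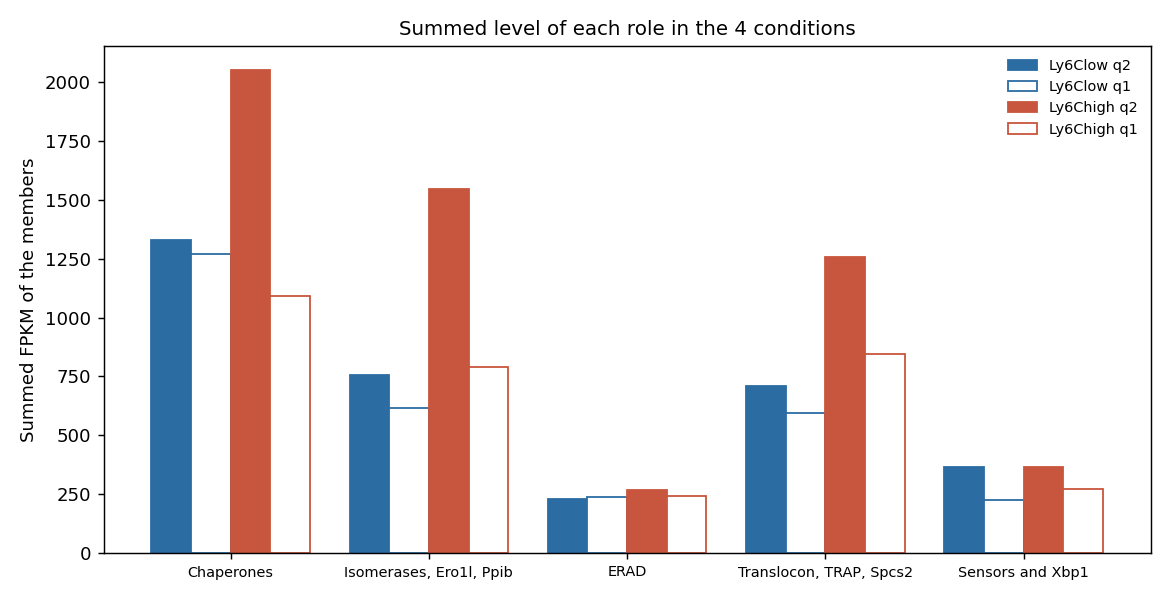
Summed FPKM of the members of each role in q2 (filled) and q1 (open) of the Ly6Clow and Ly6Chigh tables; there are no error bars because the authors give 1 value per condition. Chaperones sum to 1329 and 1271 FPKM in q2 and q1 of the Ly6Clow table, against 2052 and 1090 FPKM in the Ly6Chigh table.

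The tables share no samples, and their calls overlapped as follows. Called higher in q2 in both were 7 members, Pdia4, Pdia6, P4hb, Sdf2l1, Xbp1, Sec61b and Ssr2, which are 70.0% of the 10 in Ly6Clow and 43.8% of the 16 in Ly6Chigh monocytes. Over all 11401 genes tested in both tables, the genes called higher in both were 33.8% of those called higher in Ly6Clow and 67.8% of those in Ly6Chigh monocytes. Atf6 was called lower in both, and 0 members were called in opposite directions. Calls in the Ly6Clow table alone were made for 5 members (Hspa5, Dnajb9, Edem1, Derl3 and Sec61g) and in the Ly6Chigh table alone for 10, among them Calr, Pdia3, Hsp90b1 and Creld2. Over all genes tested in both tables, 16.5% were called in the Ly6Clow table alone, 4.78% in the Ly6Chigh table alone and 0.535% in opposite directions. For 13 of the 36 members no call was made in either table, beside 69.0% of all these genes. Whether a fold differed between the subsets was not tested, since that needs values per sample and the same numbering of the conditions.

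Levels set across the tables, which may have been normalized separately, placed the Ly6Chigh q2 condition highest for 27 of the 36 members. The share of all genes highest in that condition was not computed, so this count is a description only. With the conditions of each table averaged geometrically, 30 of 36 members were lower in the Ly6Clow than in the Ly6Chigh table. Their median log2 ratio was -0.25, beside 0.00 over the 11375 genes tested in both tables with each FPKM above 0. Of those 11375 genes, 5646 were lower in the Ly6Clow table. Sec61b had the lowest ratio, at -1.24 on the log2 scale, followed by P4hb at -0.97 and Sdf2l1 at -0.83. The 8 translocation genes, the 6 genes of the isomerase role and the 4 of the sensor group were all below 0, as were 10 of 11 chaperones. Of the 7 ERAD genes 5 were above 0, with Derl3, a gene under 1 FPKM, at 1.26 and the others of these at most 0.112. The size of this difference depended on the conditions set against each other. The median ratio was -0.49 from q2 of both tables and -0.11 from q1 of both, where 8 of 11 chaperones were higher in the Ly6Clow table. Over the genes tested in both tables, the medians were -0.0058 from q2 and 0.0166 from q1. From q1, 5859 of 11389 of those genes were higher in the Ly6Clow table. For Calr the levels were 506 and 452 FPKM in q2 and q1 of the Ly6Clow table, against 811 and 328 in the Ly6Chigh table, so the Ly6Clow values lay between those of Ly6Chigh. Herpud1, Derl1, Derl2 and Dnajb9 were highest in q1 of the Ly6Clow table, and Atf6, Ern1 and Eif2ak3 in q1 of the Ly6Chigh table. No test was made across tables.

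The promoters of 4 members and the calls are set side by side here: Hspa5 as the classic ERSE gene, Sdf2l1 and Pdia4 with the largest called folds of Ly6Chigh and Derl3 with that of Ly6Clow monocytes. The 200 bases before the annotated start (GRCm38.p6) are given along the strand of the gene. Capitals mark the fixed ERSE letters in Hspa5 and Derl3, where the site of Derl3 is read on the opposite strand, and in Sdf2l1 and Pdia4, which held 0 of the 4 motifs, the CCAAT boxes on either strand (CCAAT or ATTGG).
Hspa5 (chr2:34771890-34772089, plus strand): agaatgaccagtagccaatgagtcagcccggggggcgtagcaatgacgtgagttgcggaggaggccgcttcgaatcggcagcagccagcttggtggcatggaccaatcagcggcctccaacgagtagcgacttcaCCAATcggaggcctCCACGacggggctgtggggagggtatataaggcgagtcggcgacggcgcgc
Sdf2l1 (chr16:17132384-17132583, minus strand): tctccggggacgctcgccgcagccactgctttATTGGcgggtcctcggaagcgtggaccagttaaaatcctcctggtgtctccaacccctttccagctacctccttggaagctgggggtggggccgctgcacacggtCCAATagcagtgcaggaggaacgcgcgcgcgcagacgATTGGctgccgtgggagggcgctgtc
Pdia4 (chr6:47813513-47813712, minus strand): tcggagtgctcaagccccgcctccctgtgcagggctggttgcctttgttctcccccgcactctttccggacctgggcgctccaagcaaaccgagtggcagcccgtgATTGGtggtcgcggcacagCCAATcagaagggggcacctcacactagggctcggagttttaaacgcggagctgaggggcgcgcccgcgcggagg
Derl3 (chr10:75893198-75893397, plus strand): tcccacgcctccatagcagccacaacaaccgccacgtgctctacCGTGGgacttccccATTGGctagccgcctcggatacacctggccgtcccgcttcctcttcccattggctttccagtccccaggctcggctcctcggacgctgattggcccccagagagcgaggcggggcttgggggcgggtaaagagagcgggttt
In Ly6Chigh monocytes 4 of the 9 ERSE members were called higher in q2 (Calr, Creld2, Hsp90b1 and Pdia6) and 0 lower, with a median log2 fold change of 0.83, and of the 21 members whose promoter held no ERSE 9 were higher and 1 lower, with a median of 0.50. In Ly6Clow monocytes 2 of the 9 were higher (Pdia6 and Derl3) and 1 lower (Hspa5), with a median of 0.11, against 7 higher and 1 lower of the 21, with a median of 0.17. The background for these counts, over every gene with a test, was 7.07% higher and 7.54% lower for the Ly6Chigh table. For the Ly6Clow table it was 14.2% and 12.2%, and the calls of the 9 ERSE members there lay near it. With 9 and 21 members, the counts of both subsets are a description only. The difference between members with and without ERSE was not tested. A motif match describes these letters only, and no binding was measured.

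Other genes of the pathway, 70 in 6 lists, were counted beside the members. In Ly6Chigh monocytes 10 of the 68 tested were called higher and 3 lower in q2, beside 7.07% and 7.54% of all tested genes. In Ly6Clow monocytes 8 were called each way, near or below the 14.2% higher and 12.2% lower of all tested genes. The oligosaccharyltransferase, which adds glycans to proteins as they enter the ER, was listed with calnexin cycle enzymes. Of those 12, 5 were higher and 0 lower in Ly6Chigh monocytes (7 and 0 at an unadjusted Cuffdiff p under 0.05), with a median log2 fold change of 0.42, and 1 higher (Uggt1) and 1 lower (Stt3b) in Ly6Clow monocytes. The 5 were Rpn1, Rpn2, Ddost, Stt3b and Ostc. The subunit gene Rpn1 was at 83.7 FPKM in q2 and 43.0 in q1, 1.95-fold higher, in Ly6Chigh monocytes, and Rpn2 at 171 and 106 FPKM, 1.62-fold higher (q = 0.000859 and q = 0.00403 per the authors' deposited table). Of 13 other isomerases and folding enzymes, 1 was higher (Fkbp2) and 0 lower in Ly6Chigh (3 and 0 at an unadjusted Cuffdiff p under 0.05), and 4 higher (Pdia5, Txndc5, Qsox1 and Fkbp2) and 1 lower (Txndc12) in Ly6Clow monocytes. Of 16 other ERAD genes, 1 was higher in each subset and 0 lower (2 and 0 in Ly6Chigh, 2 and 1 in Ly6Clow at an unadjusted Cuffdiff p under 0.05). It was Vcp, the ATPase that pulls proteins out of the membrane, at 178 and 113 FPKM in q2 and q1 of the Ly6Chigh table (q = 0.00897) and at 125 and 85.2 in the Ly6Clow table (q = 0.000418), per the authors' deposited table. Of 10 other translocon genes, 0 were called in Ly6Chigh (2 higher and 0 lower at an unadjusted Cuffdiff p under 0.05) and 1 was higher (Sec11a) in Ly6Clow monocytes.

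Targets of PERK and of the integrated stress response were called in both directions. Of 10 tested, Ly6Chigh monocytes had 3 called higher and 2 lower in q2, and Ly6Clow monocytes 1 higher (Sesn2) and 4 lower (Atf3, Ppp1r15a, Ppp1r15b and Atf4). All tested genes were called higher and lower at 7.07% and 7.54% in Ly6Chigh and at 14.2% and 12.2% in Ly6Clow monocytes, and with 10 genes these counts are a description only. Atf3, a stress-induced transcription factor, was at 36.2 FPKM in q2 and 136 in q1 of the Ly6Chigh table, 3.76-fold lower (q = 0.000859), and at 14.9 and 50.5 FPKM in the Ly6Clow table, 3.38-fold lower (q = 0.000418), per the authors' deposited table. Ppp1r15a, which encodes GADD34, the phosphatase subunit that reverses PERK signalling, was at 71.1 and 123 FPKM in q2 and q1 of the Ly6Chigh table, 1.72-fold lower (q = 0.0029), and at 60.3 and 129 FPKM in the Ly6Clow table, 2.14-fold lower (q = 0.000418), per the authors' deposited table. Ddit3, which encodes CHOP, did not pass in either table, at 8.28 and 11.7 FPKM in q2 and q1 of Ly6Chigh and 14.004 and 23.3 of Ly6Clow monocytes (q = 0.744 and q = 0.0548 per the authors' deposited table). The genes called higher in Ly6Chigh monocytes were Cebpb, at 303 and 123 FPKM (2.47-fold), and 2 genes at low levels, Asns, at 1.87 and 0.512 FPKM (3.65-fold), and Trib3, at 0.831 and 0.211 FPKM (3.95-fold), with q-values of 0.000859, 0.00991 and 0.0421 per the authors' deposited table. Of 7 other sensor and processing genes, 0 were higher and 1 lower (Map3k5) in Ly6Chigh (0 and 1 at an unadjusted Cuffdiff p under 0.05), and 0 higher and 2 lower (Map3k5 and Atf6b) in Ly6Clow monocytes (1 and 2).

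**Figure D4:**
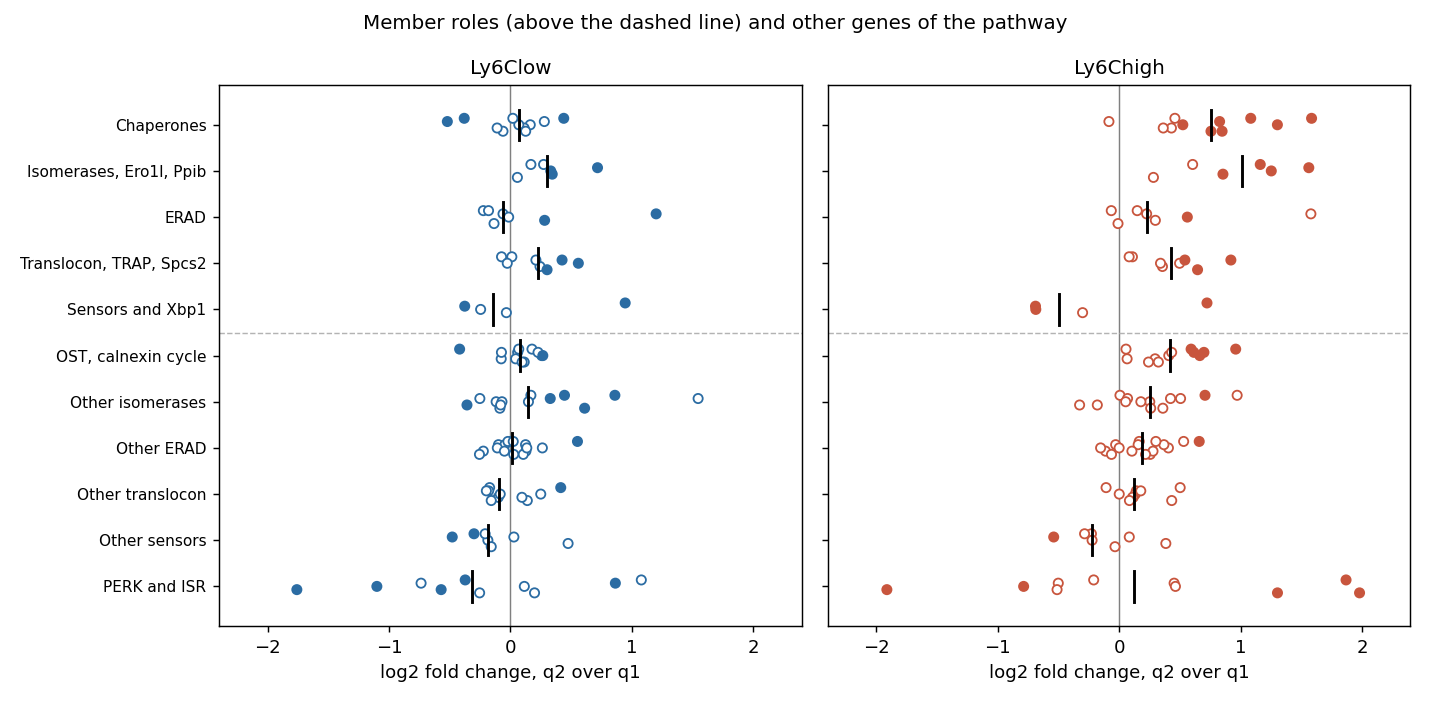
Log2 fold change (q2 over q1) of each tested gene of the 5 member roles, above the dashed line, and of 6 lists of other pathway genes, in Ly6Clow and Ly6Chigh monocytes; filled points have a q-value under 0.05 and the bar is the median. In Ly6Chigh the isomerase and chaperone medians are 1.01 and 0.76, while the sensor group lies at -0.49.

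Plasma cells and B cells have an expanded ER, and neutrophils can enter a myeloid sort, so their markers are given beside these results. For the counts below, all tested genes were called higher and lower at 7.07% and 7.54% in Ly6Chigh and at 14.2% and 12.2% in Ly6Clow monocytes. In the Ly6Chigh table the 7 plasma cell markers other than Xbp1 summed to 28.3 FPKM in q2 and 33.2 in q1, with 1 of 5 tested called higher and 2 lower. Sdc1, the syndecan that marks plasma cells, was at 4.31 FPKM in q2 and 0.703 in q1, 6.12-fold higher (q = 0.000859 per the authors' deposited table). The transcription factor genes Prdm1, at 0.84 and 4.12 FPKM, and Irf4, at 12.7 and 21.9 FPKM, were the genes called lower in q2. The defining plasma cell gene Igj was at 0.0621 FPKM in q2 and 0.064 in q1, and Tnfrsf17 was listed at 0 in both. The 6 B cell markers summed to 70.9 FPKM in q2 and 86.4 in q1, with 1 higher and 0 lower (1 and 1 at an unadjusted Cuffdiff p under 0.05). In the Ly6Clow table the plasma cell markers called higher in q2 were Sdc1, at 2.68 and 1.44 FPKM in q2 and q1, Irf4, at 20.5 and 12.2, and Mzb1, an ER protein of plasma and B cells, at 7.87 and 4.49, while Prdm1 was called lower, at 1.54 and 2.65. Igj was at 0.597 and 0.832 FPKM there, and B cell markers summed to 272 and 197 FPKM, with 4 of 6 higher and 0 lower (5 and 0). Neutrophil markers, 5 of 6 used from the tables, summed to 513 FPKM in q2 and 91.6 in q1 of the Ly6Chigh table, of which S100a8 gave 422 and 62.9 and S100a9 89.0 and 28.3, and monocytes also express both. Elane was at 1.28 FPKM in q2 and 0.19 in q1, Mpo at 0.172 and 0.152 and Ngp at 0.111 and 0. The list summed to 22.0 and 11.2 FPKM in q2 and q1 of the Ly6Clow table. T cell and NK cell markers summed to at most 9.83 FPKM in any condition. The part of these cells in the results on the members was not tested.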

How the data were processed

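Total RNA of 12 samples was sequenced from TruSeq libraries, per the labels' protocols. Trimmomatic 0.33, TopHat2 2.0.14, Bowtie2 2.2.5, Cufflinks 2.21, Cuffdiff 2.21 and build mm10 are named in the submitters' processing notes, without settings. The authors deposited a table per subset with an FPKM value per gene and condition, the Cuffdiff test statistic, which is a score not used here, and the Cuffdiff p-value and q-value, per the file headers. The smallest deposited p-value is 5e-05, so the smallest q-value, 0.000859 in the Ly6Chigh and 0.000418 in the Ly6Clow table, is shared by many genes. Tables were assigned to subsets by their names, and markers were then compared between them.

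Fold changes were computed as FPKM in q2 over FPKM in q1, without a pseudocount, in Python 3.11.15 with pandas 2.3.3. The plan compared MDP with placebo, which the unnamed conditions do not allow. A gene is called where its status is OK and its q-value is under 0.05, which equals the authors' own flag in 23996 of 23996 rows of each table. No fit with values per sample, and so no limma test, was possible. Deposited locus starts were moved by 1 base to count from 1. Member transcripts of GENCODE M21 were compared with all others by BLAST 2.17.0 (identity of at least 95% over at least 200 bases). The calling and adjustment functions were tested on simulated data.

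The members and lists were chosen with earlier results of these data known. The text gives each member with a q-value under 0.05 in either table in full, the most abundant of each role, and the other members by value. Other pathway genes were to be named where called and at least 2-fold; those named beside a count, with Ddit3, were chosen after their values were seen. The table lacks a row for 1 listed marker, Ly6g. The summed Ly6Chigh markers are not reported here, and 2 of them are given alone, chosen after their values were seen. Alternatives were a q-value under 0.01, a minimum of 1.5-fold, readjustment over genes of at least 1 FPKM, centring, pseudocounts and other pairings of conditions.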

Additional observations from a re-analysis of the deposited data

How the results depend on the processing

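In Ly6Chigh monocytes the counts of members called in q2 over q1 stayed within 1.5 times under the other thresholds and the filter on low values, at 15 to 18 of 36. The median log2 fold change of the members stayed between 0.48 and 0.51. Centring cannot change the number called, because it leaves the q-values as they are. In Ly6Clow monocytes the 13 calls (10 higher and 3 lower) became 8 (5 higher) at a q-value under 0.01 and 3 (3 higher and 0 lower) with a minimum of 1.5-fold, where an unadjusted Cuffdiff p under 0.05 also left 0 lower. Pdia6, P4hb, Edem1, Derl3 and Ssr2 lost their call there at the stricter q-value, and Dnajb11, Sel1l and Ssr4 in Ly6Chigh monocytes. Without the 15 members of uncertain locus or reads, 10 of the other members were called higher in Ly6Chigh and 6 in Ly6Clow monocytes. This alternative was chosen after seeing the data, and it counts fewer members than the 36 that gave 16 and 10. Of all tested genes, 7.07% and 14.2% were called higher. The median log2 ratio of the Ly6Clow over the Ly6Chigh table, -0.25, was -0.11 from q1 of each, -0.49 from q2 of each, -0.60 from Ly6Clow q1 over Ly6Chigh q2 and -0.014 from Ly6Clow q2 over Ly6Chigh q1. Over the genes tested in both tables, the medians of these pairings lay between -0.0058 and 0.0241. Pseudocounts and centring could not reverse the direction of a called member. A pseudocount added to both conditions keeps the direction, and centring subtracted medians of only 0.0045 in Ly6Chigh and -0.0044 in Ly6Clow monocytes. No paired analysis was possible because the columns carry no replicate numbers, and leaving out replicates was not run for the same reason. The depth is unknown, so no limit from depth can be given; Derl3, under 1 FPKM in each condition, is the least precise member.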
